A study of Homo sapiens with 3 samples.

Results

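Peaks of p300/CBP were examined around 8 genes of the TGF-beta pathway, the ligand genes TGFB1 and TGFB2, the receptor genes TGFBR1 and TGFBR2, the signal transducer genes SMAD2 and SMAD3, the inhibitory SMAD gene SMAD7 and the repressor gene SKIL. A peak belonged to a locus when its centre lay within 100 kb of the transcription start site (TSS) of the gene on hg19, the TSS being the 5′ end of the gene in GENCODE. This gave 101 of the 82901 peaks of control cells and 71 of the 39320 peaks of Fra-1-depleted cells. All 8 genes had at least 1 peak in both lists. The cells were MDA-MB-231, an established human cell line of triple-negative, basal B breast cancer. A control siRNA (siCTL) or pooled siRNAs against Fra-1 (siFra-1), the AP-1 subunit encoded by FOSL1, were transfected at 4.5 nM, and cells were fixed 72 h later for ChIP-seq with an antibody to p300/CBP. The series holds 3 samples, of which the 2 p300/CBP samples gave 1 peak list each and 1 input DNA was not analysed here.

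Replicate immunoprecipitations were pooled by the authors before the library was made, so each condition is 1 library without replicates. Differences between the lists have no replicate error, no test was made and no p-value is given. Intervals are 95% intervals (Clopper-Pearson for ratios of peak numbers, Wilson for shares), cover counting error over peaks alone, and hold for these 2 libraries, not for the conditions in general. The lists give the position of each peak and no height, so depth is unknown, width is used in place of height, and a site missing from a list is not shown to lack signal. The whole lists set the scale for every count: the siFra-1 list held 0.474 times as many peaks as the siCTL list (0.469 to 0.480), but 1.64 times as many wide peaks, here peaks of 250 bp and over (1.57 to 1.71). The extent of Fra-1 depletion is not measured by these files.

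TGF-beta ligands are secreted in a latent form and, once released, bind the type II receptor TGFBR2, which activates the type I receptor TGFBR1. TGFBR1 then phosphorylates SMAD2 and SMAD3, which enter the nucleus with SMAD4 and recruit the acetyltransferases p300 and CBP to DNA, often beside AP-1. SMAD7 blocks the receptor and SKIL (SnoN) represses SMAD targets. In breast cancer cells the pathway is known for its part in invasion and epithelial-mesenchymal transition.

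The sequences that recur below are stretches of wide sites holding the AP-1 consensus TGAGTCA, which reads on the other strand as TGACTCA. A site is a group of peaks of either list that overlap by at least 1 bp, and it is named by the distance of its centre from the TSS in kb, negative upstream and positive in the direction of transcription. Each stretch is the plus strand of GRCh37 (hg19), read 5′ to 3′, reaches 40 bases to each side of the outermost motif and may run past the edge of the peak. Capitals mark the AP-1 motif. A motif of a site need not lie within the peaks of both lists. Stretches that touch an annotated UTR are not printed. This leaves out the wide sites TGFB1 +30.2 kb, with 2 motifs, and SMAD3 +61.9 kb, with 1. The wide site SMAD3 +27.6 kb, with 1 motif and outside a UTR, is not printed either. The 4 sites of TGFB2 are shown first, since this locus was followed furthest:
TGFB2 +32.2 kb (chr1:218550745-218550831): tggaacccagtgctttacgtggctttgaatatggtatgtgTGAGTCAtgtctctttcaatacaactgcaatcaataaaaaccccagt
TGFB2 +114.8 kb (chr1:218633415-218633501): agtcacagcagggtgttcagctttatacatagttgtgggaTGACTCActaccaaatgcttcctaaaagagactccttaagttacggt
TGFB2 +135.4 kb (chr1:218654144-218654230): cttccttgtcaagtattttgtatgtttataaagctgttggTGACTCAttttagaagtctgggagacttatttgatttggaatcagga
TGFB2 +315.2 kb (chr1:218834159-218834309): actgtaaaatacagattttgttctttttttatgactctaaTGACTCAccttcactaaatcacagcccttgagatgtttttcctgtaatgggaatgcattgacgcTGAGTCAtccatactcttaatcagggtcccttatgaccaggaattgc
TGFBR2 carried motifs at 3 wide intronic sites:
TGFBR2 +52.0 kb (chr3:30699949-30700035): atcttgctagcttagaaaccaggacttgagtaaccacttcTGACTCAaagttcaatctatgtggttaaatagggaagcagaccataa
TGFBR2 +52.9 kb (chr3:30700793-30701006): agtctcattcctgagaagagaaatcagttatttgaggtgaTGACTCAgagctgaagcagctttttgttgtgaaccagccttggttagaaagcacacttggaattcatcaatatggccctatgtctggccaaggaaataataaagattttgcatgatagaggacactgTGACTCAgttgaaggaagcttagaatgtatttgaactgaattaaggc
TGFBR2 +75.4 kb (chr3:30723349-30723547): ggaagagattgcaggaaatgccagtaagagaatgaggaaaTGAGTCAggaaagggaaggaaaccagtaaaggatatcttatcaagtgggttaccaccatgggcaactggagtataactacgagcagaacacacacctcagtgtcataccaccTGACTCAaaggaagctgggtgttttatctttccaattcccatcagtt
SMAD3 is represented by the widest site seen in siFra-1 alone and by 2 sites seen in both lists:
SMAD3 -14.1 kb (chr15:67342145-67342231): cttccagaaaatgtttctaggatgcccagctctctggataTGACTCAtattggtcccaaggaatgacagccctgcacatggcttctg
SMAD3 +43.4 kb (chr15:67399474-67399560): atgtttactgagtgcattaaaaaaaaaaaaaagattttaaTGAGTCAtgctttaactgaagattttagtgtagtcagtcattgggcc
SMAD3 +86.6 kb (chr15:67442551-67442637): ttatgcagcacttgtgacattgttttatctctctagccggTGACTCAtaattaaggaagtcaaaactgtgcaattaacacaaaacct
SMAD7 had a single wide site, with motifs in 2 stretches:
SMAD7 -47.4 kb (chr18:46524445-46524531): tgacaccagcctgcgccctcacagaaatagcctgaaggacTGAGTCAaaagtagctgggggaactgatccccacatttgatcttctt
SMAD7 -47.4 kb (chr18:46524622-46524708): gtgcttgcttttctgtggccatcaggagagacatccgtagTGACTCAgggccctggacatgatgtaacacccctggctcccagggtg

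Over the 8 loci peaks were fewer after siFra-1, and wide peaks were more numerous. The ratio of siFra-1 to siCTL peaks was 0.703 (0.511 to 0.962) and that of wide peaks, 23 against 14, was 1.64 (0.810 to 3.45), an interval that includes 1. Narrow peaks accounted for the lower number, with 70 peaks of 100 bp, the narrowest width in either list, in siCTL and 35 in siFra-1. Covered length was similar, 15750 bp in siCTL and 16500 bp in siFra-1, where the whole lists covered 9956250 and 6290700 bp. siFra-1 peaks covered more at 3 genes (TGFBR2, SMAD3 and SMAD7), less at 4 (TGFB1, TGFB2, TGFBR1 and SKIL) and the same at SMAD2. siFra-1 peaks were fewer at 5 genes (TGFB1, TGFB2, TGFBR1, TGFBR2 and SKIL), equal in number at SMAD2 and SMAD3 and more at SMAD7 alone. Of all protein-coding genes with a peak within 100 kb, 85.8% had fewer siFra-1 peaks and 7.68% had more. Of the 6 members with a wide peak, 3 (TGFBR1, TGFBR2 and SMAD3) had more in siFra-1 and 0 had fewer, while among all genes with a wide peak 49.5% had more and 22.9% had fewer. The SMAD3 locus held 30 of the peaks of each list, and without it the ratio was 0.577 (0.383 to 0.860) for all peaks and 1.57 (0.556 to 4.78) for wide peaks. The order of covered length also turned without SMAD3, to 9600 bp in siCTL and 8400 bp in siFra-1. Counting peaks of 150 bp and over alone turned the ratio of all peaks to 1.16 (0.698 to 1.94).

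**Figure D1:**
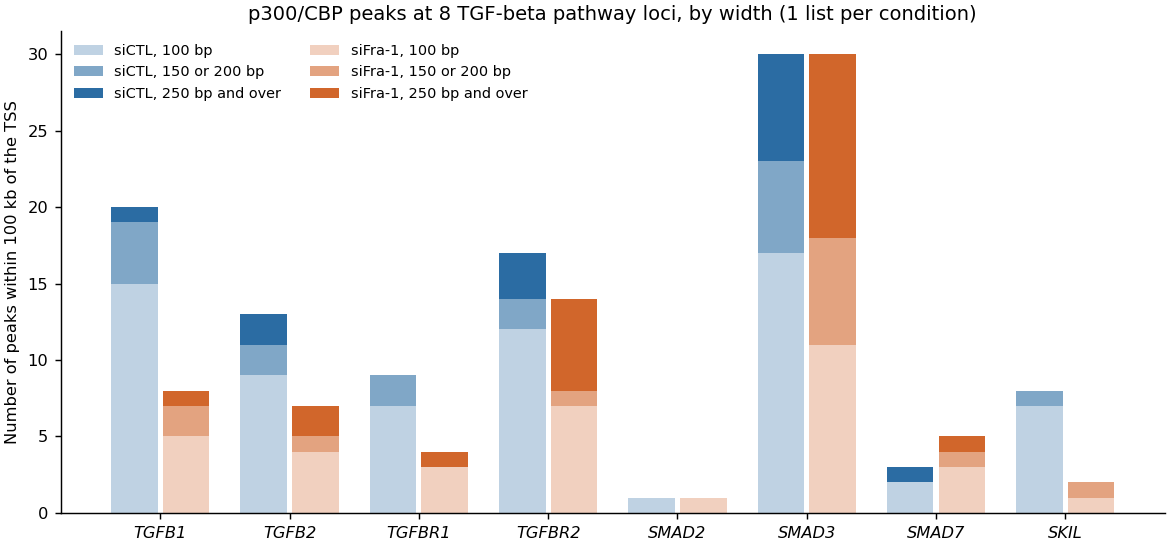
Number of p300/CBP peaks with the centre within 100 kb of the TSS of each gene, siCTL in blue and siFra-1 in orange, 1 list per condition and shaded by peak width. SMAD3 holds 30 peaks in both lists, and the dark part of its bar (250 bp and over) is 7 peaks in siCTL and 12 in siFra-1.

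**Figure D2:**
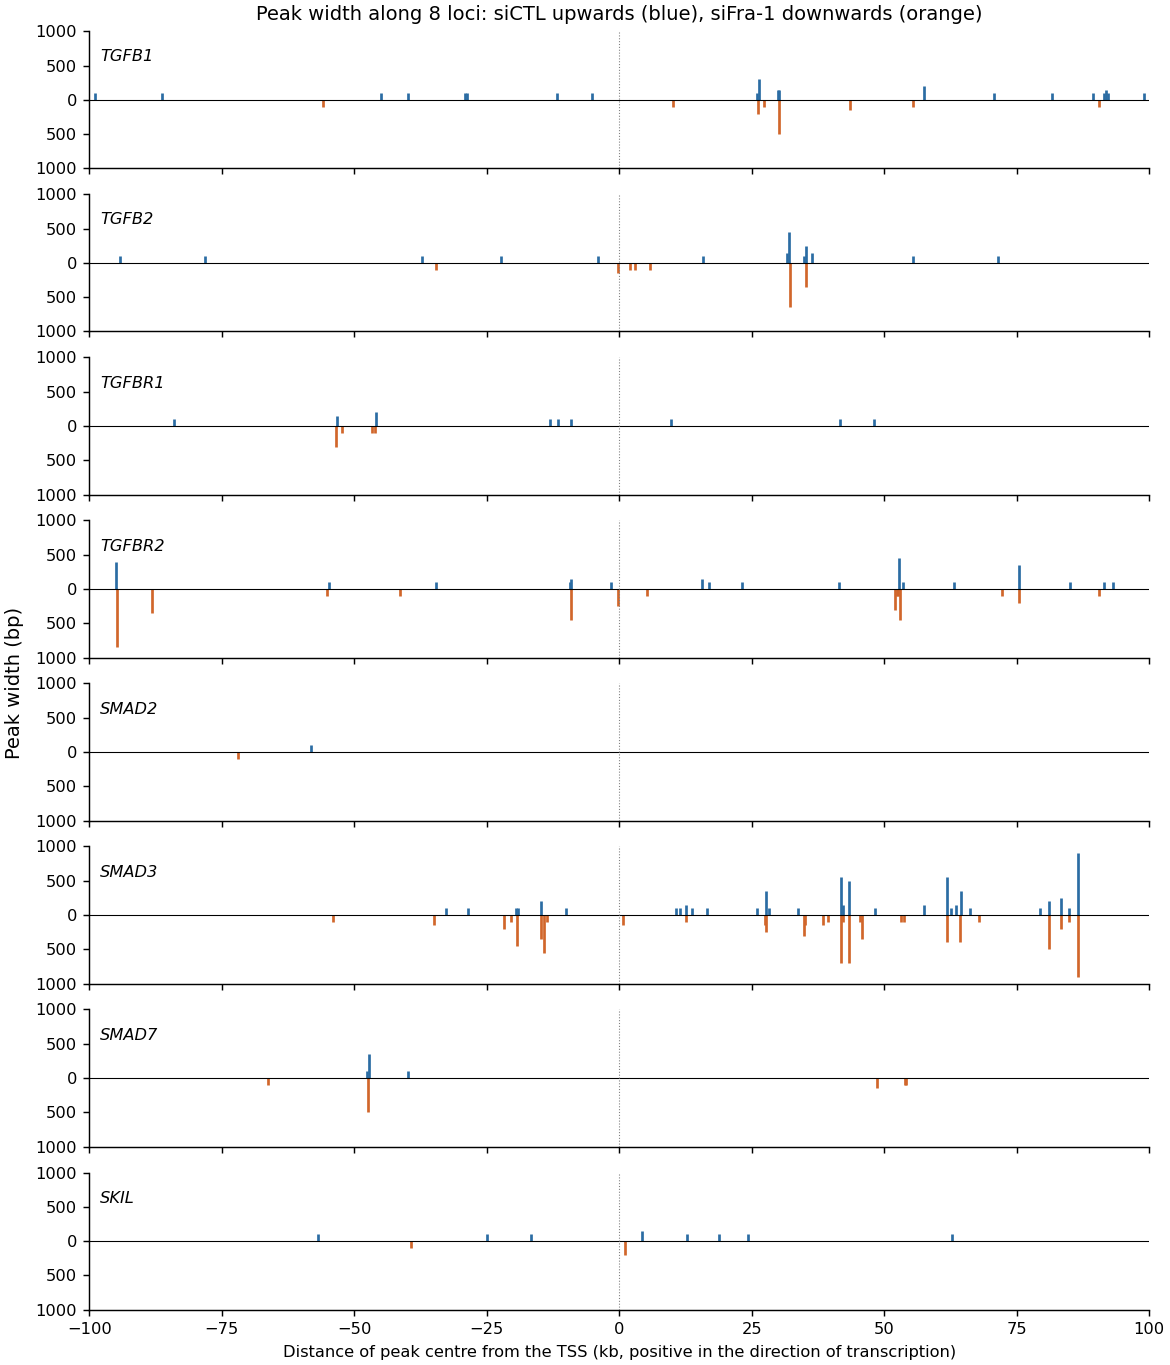
Each line is 1 peak, placed at the distance of its centre from the TSS (kb) and as long as the peak is wide (bp), siCTL upwards and siFra-1 downwards. Every siCTL line of 250 bp and over has a siFra-1 line opposite it, whereas 3 of the 6 such siFra-1 lines of TGFBR2 and 3 of the 12 of SMAD3 have no siCTL line opposite.

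Most wide peaks lay at places called in both lists. At the 8 loci all 14 wide siCTL peaks were overlapped by a siFra-1 peak (interval from 78.5%), and 17 of the 23 wide siFra-1 peaks (73.9%, 53.5% to 87.5%) by a siCTL peak. Over the whole lists these shares were 85% and 68.2%. Including narrow peaks, 26 siCTL peaks (25.7%, 18.2% to 35.0%) and 25 siFra-1 peaks (35.2%, 25.1% to 46.8%) were overlapped, where the whole lists gave 9.56% and 19.1%. SMAD3 held 14 of the overlapped peaks of each list, and without this locus the siCTL share was 16.9% (9.94% to 27.3%) and the siFra-1 share 26.8% (15.7% to 41.9%). The 144 sites comprised 23 found in both lists, 75 in siCTL alone and 46 in siFra-1 alone. Of the 23, 15 were wider in siFra-1, 2 were equal and 6 were narrower, beside 52.3% wider and 24.3% narrower over all 7292 sites found in both lists. The mean difference was 93.5 bp ± 154 (SD over sites), from -150 to 450 bp, against 65.4 bp ± 163 over all sites. Edges lie on a grid of 50 bp, so a difference of 50 bp is the smallest that can be seen.

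**Figure D3:**
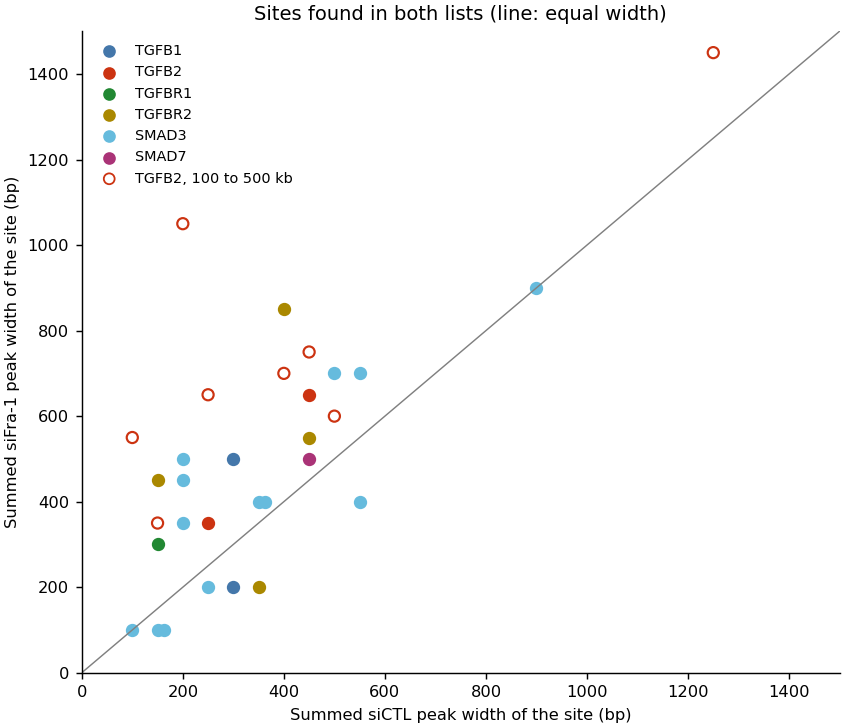
Summed siCTL width (bp, horizontal) against summed siFra-1 width (bp, vertical) of each site found in both lists, coloured by gene, with open points for TGFB2 sites between 100 and 500 kb. Points with equal values are moved slightly to the right, and the line marks equal width. All 10 TGFB2 sites lie above the line, while TGFB1, TGFBR2 and SMAD3 have sites on both sides of it.

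Among the ligand genes, TGFB1 on chromosome 19, which encodes the most widely expressed TGF-beta isoform, had 20 peaks in siCTL and 8 in siFra-1 (ratio 0.400, 0.152 to 0.948). Its neighbourhood holds other genes, and 2 of the siCTL peaks lay in AXL. Only 2 sites of TGFB1 were found in both lists. At +30.2 kb (chr19:41829402-41829901), in an annotated UTR and within both TGFB1 and CCDC97, a pair of siCTL peaks with a summed width of 300 bp lay under a single siFra-1 peak of 500 bp. At +26.4 kb, in an intron of TGFB1, the order was the opposite, with 300 bp in siCTL and 200 bp in siFra-1. No peak of either list lay within 5 kb of the TGFB1 TSS.

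TGFB2 on chromosome 1, a ligand gene whose promoter was a viewpoint of the study's chromatin contact maps, had 13 peaks in siCTL and 7 in siFra-1 within 100 kb, of which 2 were wide in each list. Both wide sites were intronic, found in both lists and wider in siFra-1. The site at +32.2 kb (chr1:218550552-218551251), whose AP-1 stretch opens the sequences above, measured 450 bp in siCTL and 650 bp in siFra-1. Its neighbour at +35.3 kb measured 250 and 350 bp and held no AP-1 consensus. Beside these sites siCTL alone had peaks of 150 bp at +31.6 kb, 100 bp at +34.8 kb and 150 bp at +36.3 kb, which are not part of the widths given. Within 100 kb the covered length was 1900 bp in siCTL and 1550 bp in siFra-1. Near the TSS the lists differed: siCTL had 1 peak of 100 bp at -3.93 kb, and siFra-1 had 150 bp at -0.20 kb, in an exon of the antisense gene TGFB2-AS1, and 100 bp each at +2.12 and +3.07 kb.

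Beyond 100 kb, TGFB2 showed a run of wide sites on the side of the gene's 3′ end. Within 500 kb siCTL had 70 peaks and siFra-1 had 55 (ratio 0.786, 0.542 to 1.13), of which 7 and 16 were wide (ratio 2.29, 0.890 to 6.57). The whole lists gave ratios of 0.474 and 1.64. Upstream of the TSS there were 22 and 11 peaks, of which 0 and 1 were wide, and downstream 48 and 44, of which 7 and 15 were wide. All 10 sites found in both lists were wider in siFra-1, by 310 bp on average ± 222 (SD over sites), with differences from 100 to 850 bp. Over the whole lists 52.3% of such sites were wider and 24.3% narrower, with a mean difference of 65.4 bp. This comparison is not matched for width. The overlapped siFra-1 peak was wide at all 10 TGFB2 sites, whereas 4082 of the 7526 overlapped peaks of the whole siFra-1 list were wide. The 6 wide sites found in a single list were all in siFra-1, and those at +134.6 and +154.0 kb adjoin sites found in both lists. That at +240.6 kb starts at the base after a siCTL peak of 100 bp at +240.4 kb. Of the 16 wide siFra-1 peaks 62.5% were overlapped by a siCTL peak, near the 68.2% of all wide siFra-1 peaks. All 7 wide siCTL peaks were overlapped, beside 85% over the whole siCTL list.

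The first group of distal sites lay in introns of the lncRNA gene LINC02869. The site at +114.8 kb (chr1:218633152-218633801) measured 250 bp in siCTL and 650 bp in siFra-1. At +135.4 kb (chr1:218653552-218654601) a pair of siCTL peaks with a summed width of 200 bp corresponded to a siFra-1 peak of 1050 bp, the largest difference at this locus, and siFra-1 alone had 400 bp at +134.6 kb beside it. The sites at +114.8 and +135.4 kb each held 1 AP-1 consensus, printed above. Further on, siFra-1 alone had a peak of 650 bp at +143.8 kb, while the site at +151.4 kb measured 500 and 600 bp and that at +153.4 kb 100 and 550 bp, neither with the AP-1 consensus, followed by 250 bp in siFra-1 alone at +154.0 kb.

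Between genes, 3 further sites found in both lists followed. The site at +315.2 kb (chr1:218833552-218834301), with 2 AP-1 motifs, measured 450 bp in siCTL and 750 bp in siFra-1, and that at +329.3 kb measured 400 and 700 bp. The widest site of the locus, at +361.0 kb (chr1:218878952-218880401), measured 1250 bp in siCTL and 1450 bp in siFra-1 and held no AP-1 consensus. The remaining wide peaks, at +240.6, +247.5 and +311.2 kb, were in siFra-1 alone and measured 250, 400 and 300 bp. On the upstream side the only site found in both lists, at -135.9 kb, measured 150 and 350 bp. A peak at these distances is assigned to TGFB2 by position alone. The study mapped contacts of the TGFB2 promoter, but which of these sites they reach was not examined here.

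**Figure D4:**
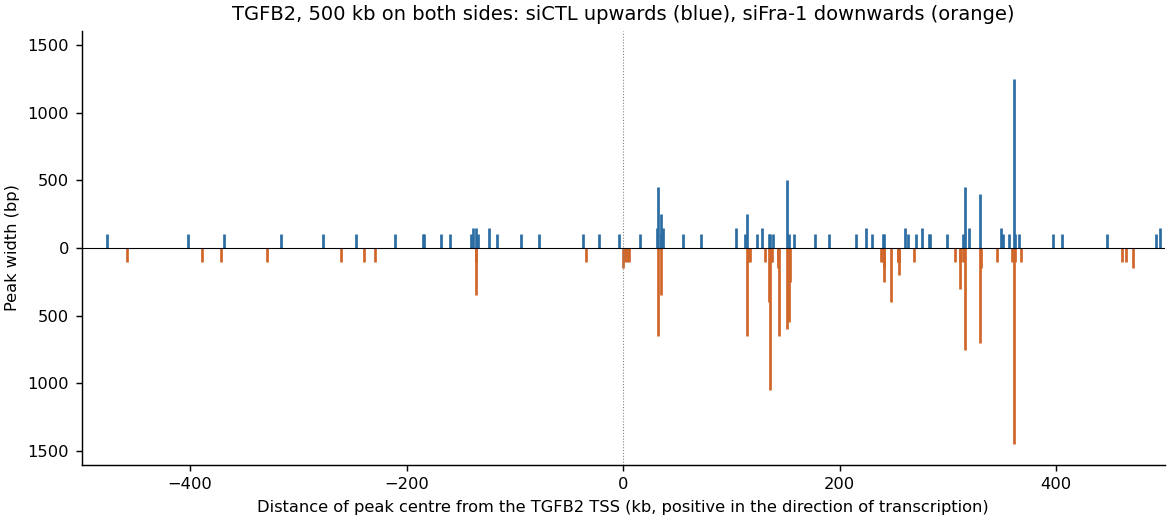
Peaks up to 500 kb from the TGFB2 TSS, placed at the distance of the centre (kb) with line length as peak width (bp), siCTL upwards and siFra-1 downwards. Long lines gather from +115 to +154 kb and from +311 to +361 kb, and the upstream side holds 1 wide peak, in siFra-1 at -135.9 kb.

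Of the receptor genes, TGFBR2 on chromosome 3 carried more wide peaks than TGFBR1 in both lists. TGFBR2, which encodes the ligand-binding receptor, had 17 siCTL and 14 siFra-1 peaks, of which 3 and 6 were wide, and its covered length was 2700 bp in siCTL and 3550 bp in siFra-1. Its widest site lay near the limit of the window at -94.9 kb (chr3:30552802-30553651), between genes, with 400 bp in siCTL and 850 bp in siFra-1. The site at -9.07 kb measured 150 and 450 bp, and a further siCTL peak of 100 bp, at -9.34 kb, ends at the base before it. In the intronic cluster around +52 kb, siFra-1 had a peak of 300 bp at +52.0 kb that siCTL lacked, and at +52.9 kb the summed width was 450 bp in siCTL and 550 bp in siFra-1. Apart from that further siCTL peak, all of these were wider in siFra-1 or found there alone, as was a peak of 350 bp at -88.2 kb. The exception was the site at +75.4 kb, with 350 bp in siCTL and 200 bp in siFra-1. Both this site and that at +52.9 kb hold the AP-1 consensus in 2 copies. At each of them the siCTL peak covers 2 copies and the siFra-1 peaks cover 1.

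TGFBR1 on chromosome 9, which encodes the kinase that phosphorylates SMAD2 and SMAD3, had 9 siCTL and 4 siFra-1 peaks. A single site was found in both lists, at -53.4 kb in an intron of COL15A1, with 150 bp in siCTL and 300 bp in siFra-1. The siFra-1 peak there was the only wide peak of the locus, and it is nearer to the TSS of TGFBR1 than to any other protein-coding TSS. All 4 siFra-1 peaks lay upstream, in COL15A1, and within the TGFBR1 gene siCTL alone had peaks, 3 in number.

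The receptor-activated SMAD genes lay at the extremes of the group. SMAD2 on chromosome 18 had a single peak of 100 bp in each list, in siCTL at -58.1 kb and in siFra-1 at -72.0 kb, and no site found in both. SMAD3 on chromosome 15 had 30 peaks in each list, of which 7 were wide in siCTL and 12 in siFra-1. The covered length was 6150 bp in siCTL and 8100 bp in siFra-1, the largest difference among the 8 loci. By comparison, the median over protein-coding genes was 6 peaks in siCTL and 2 in siFra-1 within 100 kb. Most peaks of SMAD3 lay inside the gene, 24 in siCTL and 22 in siFra-1.

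Of the 13 SMAD3 sites found in both lists, 7 were wider in siFra-1, 2 were equal and 4 narrower, with a mean difference of 65.4 bp ± 134 (SD over sites). The widest, at +86.6 kb (chr15:67442252-67443151), measured 900 bp in both lists and held 1 AP-1 consensus and 5 copies of the short SMAD-binding box CAGAC. A neighbouring pair at +41.8 and +43.4 kb measured 550 and 500 bp in siCTL and 700 bp each in siFra-1. At +81.1 kb the width was 200 bp in siCTL and 500 bp in siFra-1, whereas at +61.9 kb it was 550 and 400 bp and at +83.4 kb 250 and 200 bp. Sites at +27.6 and +64.4 kb differed by 50 bp, with 350 bp in siCTL and 400 bp in siFra-1.

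Upstream of SMAD3, in an intron of the lncRNA gene ENSG00000259347, lay another cluster, in which both sites found in both lists were wider in siFra-1. Its sites at -19.3 and -14.8 kb each had 200 bp in siCTL, and 450 and 350 bp in siFra-1. The site at -14.1 kb (chr15:67341702-67342251), the widest of the 8 loci in siFra-1 alone, had 550 bp and is the one whose AP-1 stretch is printed above. Wide siFra-1 peaks without a siCTL partner were also found inside the gene at +34.9 kb (300 bp) and +45.8 kb (350 bp). The former lies over an annotated internal transcript start of SMAD3, as do the sites at +61.9 and +64.4 kb found in both lists.

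SMAD7 on chromosome 18, induced by TGF-beta as a negative feedback, had 3 siCTL and 5 siFra-1 peaks. Its single site found in both lists, at -47.4 kb between genes (chr18:46524452-46525001), consisted of siCTL peaks of 350 and 100 bp and a siFra-1 peak of 500 bp. The other 4 siFra-1 peaks were 100 or 150 bp wide. SKIL on chromosome 3 had 8 siCTL peaks and 2 siFra-1 peaks, none wide and none overlapping. The peak nearest its TSS was at +4.30 kb in siCTL, with 150 bp, and at +1.02 kb in siFra-1, with 200 bp, both in SKIL introns.

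Within 1.5 kb of the TSS, siFra-1 had a peak at 4 of the 8 genes and siCTL at 0, where 8.94% and 15.6% of all protein-coding genes had one. These siFra-1 peaks were at TGFB2 (-0.20 kb, 150 bp), TGFBR2 (-0.32 kb, 250 bp), SMAD3 (+0.68 kb, 150 bp) and SKIL (+1.02 kb, 200 bp). The difference depends on the limit and on the choice of start: siCTL had a peak of 100 bp at TGFBR2 just outside, at -1.59 kb, 3 genes had a siCTL peak within 5 kb, and with any annotated transcript start in place of the 5′ end of the gene both lists had a peak at 4 genes. The siCTL genes were then TGFBR1, TGFBR2, SMAD3 and SKIL. Of the 4 siFra-1 promoter peaks that of TGFBR2 alone was wide, and its GRCh37 plus-strand sequence is printed whole, as it is also the only one of them between genes. It holds none of the motifs searched, and so has no capitals:
TGFBR2 -0.3 kb (chr3:30647652-30647901): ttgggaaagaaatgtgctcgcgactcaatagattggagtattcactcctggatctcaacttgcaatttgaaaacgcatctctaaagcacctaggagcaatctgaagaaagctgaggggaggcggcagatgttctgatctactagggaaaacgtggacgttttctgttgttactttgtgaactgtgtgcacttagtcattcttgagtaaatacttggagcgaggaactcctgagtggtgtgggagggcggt

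AP-1 motifs were present in many wide peaks of either list. The consensus was in 8 of the 14 wide siCTL peaks (57.1%, 32.6% to 78.6%) and in 10 of the 23 wide siFra-1 peaks (43.5%, 25.6% to 63.2%), where all wide peaks gave 41.6% and 32.5%. In windows of the same widths moved by 2 kb it was in 2 of 14 and 2 of 23, and in 6.51% and 7.35% over the whole lists. The intervals at the 8 loci are wide and the peaks of the lists overlap, so no order between siCTL and siFra-1 can be read from them. Within 200 bp centred on the peak the share was 50% in siCTL and 21.7% in siFra-1. Of the 6 wide sites in siFra-1 alone, those at TGFBR2 +52.0 kb and SMAD3 -14.1 kb held the consensus.

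The TEAD motif GGAATG, bound by the partners of YAP and TAZ, was in 8 of 14 wide siCTL peaks and 12 of 23 wide siFra-1 peaks, against 5 of 14 and 7 of 23 in the moved windows. Over all wide peaks its share was 41.4% in siCTL and 45.0% in siFra-1, against 22.3% and 25.4% in moved windows. The RUNX motif TGTGGT was in 5 of 14 and 8 of 23, against 4 of 14 and 8 of 23, while all wide peaks gave 35.0% and 40.2% against 23.5% and 25.8%. The SMAD box CAGAC was in 8 of 14 and 13 of 23 wide peaks, and in 6 of 14 and 14 of 23 moved windows, where all wide peaks gave 52.6% and 55.6% against 48.0% and 50.6%. The palindromic SMAD element was in none of the wide peaks of the 8 loci. All motifs were searched on both strands over the whole peak. A match is a description of the letters and does not show binding.

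Counts over 46 further genes of the pathway, a list chosen with earlier results of these data known, set the loci in context. siFra-1 peaks were fewer at 39 of them, equal at 4 and more at 3, with 422 siCTL and 226 siFra-1 peaks (ratio 0.536, 0.454 to 0.631). Of the 46 genes 44 had a peak in either list, and those without are counted as equal. Among all protein-coding genes with a peak within 100 kb, 85.8% had fewer siFra-1 peaks and 7.68% had more. Wide peaks numbered 23 in siCTL and 51 in siFra-1 (2.22, 1.33 to 3.80). Of the 21 genes with a wide peak, 16 had more in siFra-1, 4 had equal numbers and 1 had fewer, beside 49.5% with more and 22.9% with fewer among all genes with a wide peak. The 9 ligand genes had 2 wide peaks in siCTL and 13 in siFra-1, and the 9 genes of latency and activation had 6 and 14. The 11 receptor and co-receptor genes had 1 and 2, and the 5 other SMAD genes 2 and 6. Both the 7 repressor and ubiquitin ligase genes and the 5 target genes had 6 and 8.

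The most wide peaks were at SMURF2, a ubiquitin ligase of receptors and SMADs, with 6 in siCTL and 7 in siFra-1. LTBP3, which encodes a latent TGF-beta binding protein, followed with 2 and 6, then the ligand gene BMP4 with 1 and 4 and the target gene TGFBI with 2 and 3. Wide peaks were in the siFra-1 list alone at 8 genes and in the siCTL list alone at 1. The share of all protein-coding genes with wide peaks in a single list was not counted. The whole siFra-1 list held 1.64 times as many wide peaks, so the 8 genes are not shown to be particular to the pathway. Of these 8, SMAD6, an inhibitory SMAD, had 4, and the activin subunit gene INHBB had 3. The ligand genes BMP2 and NODAL had 2 each, and LRRC32, ITGAV, TGFBR3 and TGIF1 had 1 each. SMAD4 and the target gene CDKN2B had no peak in either list.

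At the edge of the 100 kb window, the outermost siCTL peak inside was at +99.1 kb of TGFB1 (100 bp) and the first outside at -101.7 kb of TGFBR2 (100 bp). In siFra-1 these were the peak of 850 bp at -94.9 kb of TGFBR2 and a peak of 100 bp at +101.4 kb of the same gene.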

How the data were processed

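p300/CBP ChIP-seq peak lists from MDA-MB-231 cells were analysed, 1 for siCTL and 1 for siFra-1. The authors aligned reads to hg19 (BWA-backtrack in the methods of the study, Bowtie2 in the submitters' processing notes), made 50 bp bins with PASHA, applied scaling and background subtraction, and in the Integrated Genome Browser took runs of signal over 25 as peaks, with a gap and a run of 50 bp. A further parameter, whose meaning is not given in the sources used here, was larger for siFra-1. Scaling, background and a fixed threshold therefore enter both number and width of peaks, and a difference in library complexity or enrichment cannot be told apart from one in occupancy. The deposited lists hold positions only. Starts were raised by 1 for printing.

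Genes came from GENCODE release 44 lifted to GRCh37 (20163 protein-coding genes), and sequences from GRCh37. Peaks were assigned by centre, named by rule (all peaks of 250 bp and over at each member, all within 5 kb of a TSS, for TGFB2 up to 500 kb those of 500 bp and over; other wide TGFB2 peaks were named after their values were seen), and overlapped by at least 1 bp. Python 3.11.15, numpy 2.4.6, pandas 2.3.3, scipy 1.17.1, pysam 0.24.0 and matplotlib 3.10.9 were used. The functions were tested on simulated data, and bedtools 2.31.1 gave the same overlap counts. Depth is not given, so its precision could not be stated. Alternatives were windows of 50 and 250 kb, any annotated transcript start, a minimum width of 150 or 250 bp (500 bp for wide peaks), merging within 500 bp, overlap of 50% of both peaks or within 200 bp, and other motif windows. Leaving out SMAD3 and other promoter definitions were added after the data were examined. The members and gene lists were chosen with earlier results of these data known. Of the pathway list, values of single genes are given for the 4 with the most wide peaks, for those with wide peaks in a single list and, chosen after their values were seen, for those without peaks; 1 gene that this rule names is not reported here, and it is included in the counts over the list.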

Additional observations from a re-analysis of the deposited data

How the results depend on the processing

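No paired analysis was possible because each condition is 1 library and no test was made. The minimum width changed most. With peaks of 150 bp and over, the ratio of siFra-1 to siCTL peaks turned to 1.16 at the 8 loci and to 1.10 for TGFB2 within 500 kb, overlapped shares were 64.5% for siCTL and 55.6% for siFra-1, and the peak number at TGFBR2 turned to 2 more in siFra-1. With 250 bp and over the shares were 78.6% and 47.8%, and with an overlap of 50% of both peaks 14.9% and 21.1%. The mean width difference of sites found in both lists, 93.5 bp as reported, was 95.5 bp and 33.3 bp under these 2 settings. Intervals from the spread over sites, which are not replicates, were -2.06 to 193 bp and -27.7 to 94.3 bp. Without SMAD3 the siCTL share was 16.9%. The AP-1 share of wide siFra-1 peaks was 21.7% in 200 bp centred on the peak. In a window of 50 kb SMAD7 turned to 1 fewer siFra-1 peak (a difference of -1). Members with a siCTL peak within 1.5 kb of the TSS numbered 4 with any transcript start, and 3 within 5 kb. The other 38 values of these results include the mean width differences above. These 38, and 32 values for single genes, kept their direction and lay within the interval of the value reported or kept its sign. A further 6 for single genes (5 of SMAD3 and 1 of SKIL) went to or from equal numbers. Widths come in steps of 50 bp, and with 1 library and unknown depth none of these differences has a replicate error.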
